A study of Mus musculus with 18 samples.

Results

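Pre-mid-pachytene spermatocytes of males carrying Ttf and T43H were compared with the same cell fraction of C57BL/10J males, across every gene that reached a log2 value of 4 on at least 2 of the 5 arrays of these groups. This rule kept 8858 of the 15780 genes that the array names by 1 symbol. The carriers are C57BL/10J-Ttf+/+T43H males (3 arrays), the controls plain C57BL/10J males (2 arrays), and all were 2 months old. Cells were sorted by FACS from a suspension of seminiferous tubules, and 20 to 30 ng of RNA went through a two-cycle biotin labelling. The design text calls the replicates biological. Values from the other groups stand beside those of the comparison where they bear on a gene: pre-mid-pachytene cells of C57BL/10J-t12+/+T43 males (3 arrays), mid-late-pachytene cells of C57BL/10J males (2 arrays), and whole testes without the tunica of 15-day-old males, of Ttf+/+T43H (3 arrays) and of C57BL/6J (2 arrays). The testis fit also used testes of 15-day-old t12+/+T43 males (3 arrays). Carriers and controls differ at least by both chromosomes at once, Ttf and T43H, so the contribution of either cannot be told apart. Nor can that of any other genetic difference between the stocks, which was not tested. A bulk sort likewise cannot tell fewer cells of a type from less RNA per cell.

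In pachytene of meiosis, homologous chromosomes are held together by the synaptonemal complex while recombination is completed. Chromatin that stays unsynapsed, the X and Y of every normal male included, is transcriptionally silenced. Genes of the spermatid, such as the protamines, belong to the haploid cells that follow the meiotic divisions, and a pre-mid-pachytene fraction should hold little of their RNA.

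The sorted cells carried strong spermatocyte signals in both genotypes. Sycp3, an axis protein of the synaptonemal complex, lay at 15.60, 15.23 and 15.78 in Ttf/T43H, close to the 15.24 and 15.38 of C57BL/10J, on the log2 scale used throughout. Other cell types were present too: the Sertoli list (13 tested genes) averaged 9.29 to 9.84 in Ttf/T43H against 8.41 and 8.52 in C57BL/10J. Sertoli genes such as Amh, Fshr and Gata4 were near background on all 5 arrays. In 15-day Ttf/T43H testes Amh averaged only 1.62, Gata4 3.93 and Fshr 4.46, so low values of these genes in sorted cells say little. Dhh, which averaged 7.48 in those testes, was near background on all 5 sorted arrays too. The spermatid list (37 tested genes) averaged 8.64 to 9.06 in Ttf/T43H, beside 10.97 and 10.37 in C57BL/10J. The C57BL/10J mid-late fraction, a later stage, averaged 9.12 and 8.52 on that list, so the C57BL/10J pre-mid sorts read higher for spermatid genes than the fraction of the later stage. Replicate 2 of Ttf/T43H stood apart: it correlated with the other two carrier arrays at r = 0.921 and 0.883 across genes, against 0.984 between those arrays, and its spermatogonial list averaged 9.88 against 8.08 and 7.63. A control signal for RNA and labelling quality also differed between the groups. The 3-prime minus 5-prime signal of Gapdh was 3.43, 3.91 and 3.26 in Ttf/T43H, beside 2.86 and 2.93 in C57BL/10J, with no overlap.

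Of the 8858 genes, 196 (2.21%) were called by limma at an adjusted p under 0.05: 59 rose in Ttf/T43H (0.666%) and 137 fell (1.55%). The rises ran from 1.04 to 3.39 log2 units with a median of 1.81, or 3.50-fold, and the falls from -0.99 to -5.03 with a median of -2.20, or 4.58-fold. Group ranges did not overlap for 3753 genes (42.4%), and for all 196 called genes. The median change of all genes was 0.01, with quartiles of -0.39 and 0.43, and 1648 genes had an unadjusted p under 0.05. Some of the calls are tied to the rule on low values: 66 genes passed it through C57BL/10J arrays only, and 39 of them fell, each below 4 on every Ttf/T43H array. Likewise 144 genes passed through Ttf/T43H arrays only, and 9 of them rose. These genes had to be low in the other group, so no count over them is support for a direction.

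The number of calls moved strongly with single arrays. It was 36, 386 and 82 without Ttf/T43H replicates 1, 2 and 3, and 13 and 28 without C57BL/10J replicates 1 and 2. With the Gapdh signal as a covariate, 21 genes were called, and whether RNA or labelling quality has a part in the other calls was not tested further. In simulated data of this size the fit recovered 6% of 2-fold and 47% of 4-fold changes, so a gene that was not called may still differ.

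**Figure D1:**
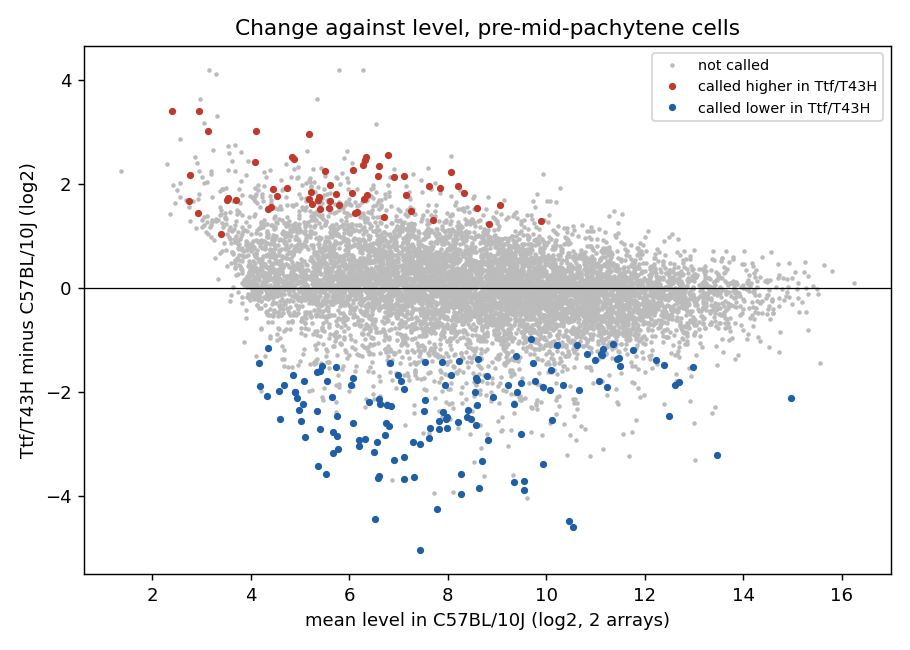
Change of each of the 8858 tested genes (log2, Ttf/T43H minus C57BL/10J) against its mean level on the 2 C57BL/10J arrays. The 59 genes that rose are red, the 137 that fell are blue, and the largest fall is -5.03.

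The promoter windows of 3 genes are shown because they carry the largest rise and the largest fall among genes with a window, and the largest fall of a class I gene of the major histocompatibility complex. Each is 300 bases, from 250 before to 50 after the start, credited to RefSeq on GRCm38.p6. H2-K1 has 2 windows in the table, of which the first is shown. Capitals mark the GC box GGGCGG on either strand, which is found once in the first window and not in the other two.

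Cxcl2, chr5:90903649-90903948, plus strand: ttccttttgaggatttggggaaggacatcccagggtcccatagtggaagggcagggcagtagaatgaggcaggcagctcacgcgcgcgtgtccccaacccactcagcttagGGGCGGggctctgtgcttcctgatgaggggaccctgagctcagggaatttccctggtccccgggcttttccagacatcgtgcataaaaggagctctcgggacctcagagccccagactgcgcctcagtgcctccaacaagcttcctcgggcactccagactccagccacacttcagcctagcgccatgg
Smpx, chrX:157698723-157699022, plus strand: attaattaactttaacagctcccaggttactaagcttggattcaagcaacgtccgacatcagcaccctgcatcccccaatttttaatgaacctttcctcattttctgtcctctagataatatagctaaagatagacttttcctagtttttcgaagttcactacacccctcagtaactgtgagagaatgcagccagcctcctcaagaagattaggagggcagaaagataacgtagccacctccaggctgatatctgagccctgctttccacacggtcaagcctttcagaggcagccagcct
H2-K1, chr17:34000298-34000597, minus strand: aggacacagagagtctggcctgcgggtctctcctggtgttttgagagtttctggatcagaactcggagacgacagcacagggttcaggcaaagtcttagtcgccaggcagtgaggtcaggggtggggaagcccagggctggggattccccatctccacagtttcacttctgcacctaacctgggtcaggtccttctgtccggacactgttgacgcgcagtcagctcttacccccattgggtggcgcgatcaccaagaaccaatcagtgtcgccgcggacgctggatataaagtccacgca

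Of the tested genes, 7339 matched a promoter window, 47 of them genes that rose and 115 genes that fell. In all, 16 motifs were searched on both strands. The first was the full cAMP response element TGACGTCA, known from spermatid genes, and it was no commoner among genes that fell (3 of 115, 2.61%) than among all tested (3.97%), with 0 of 47 among genes that rose. Shares are of genes, and a gene with several windows counts if any of them holds the motif. The GC box was picked for display only after the shares of all 16 had been seen. It was held by 42.6% of genes that fell, 72.3% of genes that rose and 68.8% of all tested. Of the 27025 genes of the promoter table outside chromosome 18, whose windows were left out, 38.2% held it. The MYB-like CAACTG, also picked afterwards, was held by 21.7% of genes that fell and by 12.5% of all tested. The others were a shorter response element TGACGT and its core TGACG, further MYB-like motifs AACTGC and, more loosely, AACNGNC, an RFX piece GTTGCC, the CCAAT box, the TATA box TATAAA, the AP-1 site TGAGTCA, a CArG box, an interferon response core, a pair of NF-kappaB sites and a MEF2 site. The core lies within the shorter element and that within the full one, and the MYB-like motifs can overlap each other. With 16 motifs looked at and no test, these shares are descriptions of letters in a window.

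Genes that fell on proximal chromosome 17, the part before Pgk2 in gene order, were led by the class I heavy chain gene H2-K1. H2-K1 read 10.47, 10.13 and 10.21 in Ttf/T43H, beside 13.45 and 13.50 in C57BL/10J. All carrier arrays lay about 3 units under the controls, a fall of 9.19-fold (log2 change -3.20 ± 0.34 SE, limma adjusted p = 0.0037). In t12/T43, compared here only side by side because both carriers share the controls, it read 11.01, 10.42 and 11.64. The C57BL/10J mid-late cells, without Ttf or T43H, read 9.63 and 9.66 for H2-K1, below every Ttf/T43H array. H2-Ab1, a class II beta chain, read 2.86, 2.83 and 2.83 against 5.14 and 4.98, so its fall of -2.22 ± 0.25 (limma adjusted p = 0.0049) ended at background, and it passed the rule on low values through C57BL/10J arrays only. H2-D1, another class I gene, had a change of -1.47 ± 0.38 that missed the threshold (limma adjusted p = 0.082). B2m, the class I light chain encoded on chromosome 2, had a change of -0.37 ± 0.37.

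Rnf5, a ubiquitin ligase of the endoplasmic reticulum membrane, read 7.61, 7.58 and 7.59 in Ttf/T43H, beside 9.94 and 10.30 in C57BL/10J. The carrier arrays were nearly level with each other and did not overlap the controls (-2.53 ± 0.32, limma adjusted p = 0.0088). Hsf2bp, which brings BRCA2 to meiotic breaks, read 9.24, 9.36 and 9.41 against 11.27 and 11.21 (-1.90 ± 0.21, limma adjusted p = 0.0043). Hagh, a glyoxalase, read 10.87, 10.88 and 10.91 against 12.65 and 12.72, a fall of 3.48-fold. Spsb3 and Kctd5, both adaptors of ubiquitin ligases, fell by 1.78 and 1.44 on the log2 scale. Rsph1, a radial spoke protein of the sperm tail and the called member among 10 tested genes of the t complex list, fell by 2.11. Its level was still high in Ttf/T43H, at 13.05, 12.14 and 13.40 against 14.77 and 15.17.

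In all, 16 of 250 tested genes of proximal 17 fell (6.40%, beside 1.55% of all genes) and limma called 0 rises. At an unadjusted p under 0.05, 70 were lower and 8 higher, beside 1648 of all 8858 genes in either direction. On distal 17, 1 of 173 genes fell, and 29 were lower and 7 higher at an unadjusted p under 0.05. The median change was -0.22 on proximal 17 and -0.23 on distal 17, and -0.46 and -0.24 without Ttf/T43H replicate 2. Along the chromosome in runs of 30 tested genes, the falls lay in the runs from Psmb1 to Pdpk1 (4), Ccnf to Tsr3 (3), Cacna1h to Bnip1 (1), Tmem217 to Angptl4 (4) and Kank3 to Ehmt2 (4). The run that holds Acsbg2 held the distal fall. Each of these counts depends on few arrays: the count on proximal 17 was 4, 31 and 9 without Ttf/T43H replicates 1, 2 and 3, 0 and 1 without C57BL/10J replicates 1 and 2, and 0 with the Gapdh covariate, where 64 genes had an unadjusted p under 0.05. Array probes were designed on reference sequence, and sequence differences between the alleles under the probes were not tested.

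**Figure D2:**
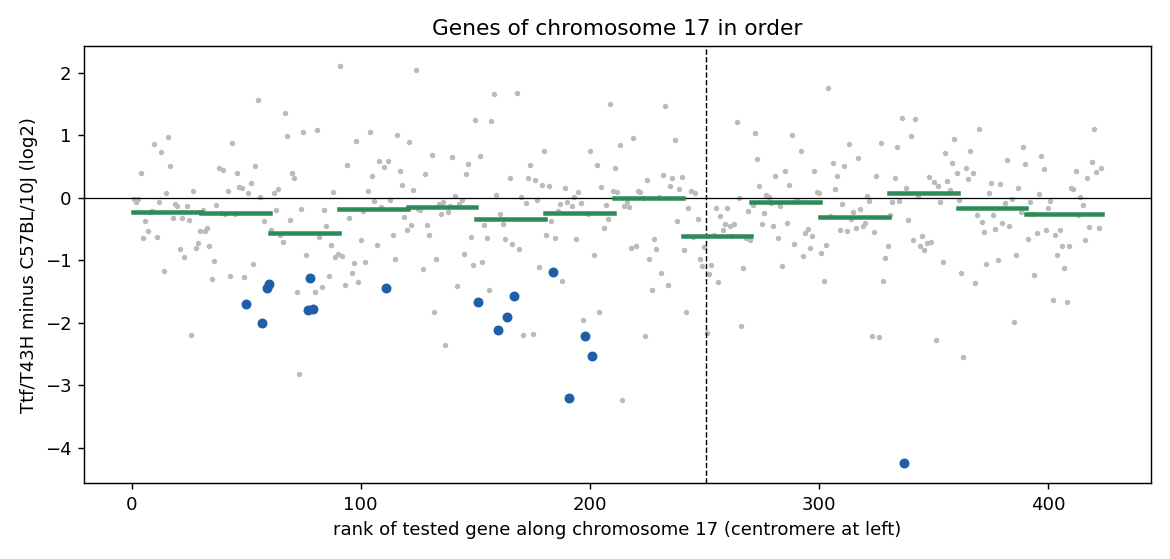
Change (log2, Ttf/T43H minus C57BL/10J) of the tested genes of chromosome 17 by rank from the centromere, with medians of runs as green bars and called falls in blue. The dashed line separates proximal 17, with 16 falls among 250 genes, from distal 17, with 1 among 173.

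On chromosome 16, which takes part in the T43H translocation, 6 of 292 genes fell (2.05%, beside 1.55% of all genes) and limma called 0 rises. At an unadjusted p under 0.05, 43 were lower and 17 higher, beside 1648 of all 8858 genes in either direction. The median change was -0.12. The 6 were Prm2, Ccdc54, Lpp, Fam3b, Dnaja3 and Zdhhc19. Dnaja3, a mitochondrial co-chaperone, read 6.65, 7.03 and 6.83 against 8.14 and 8.34 (-1.40 ± 0.23, limma adjusted p = 0.02).

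On the X, 7 of 281 genes fell (2.49%, beside 1.55% of all genes) and limma called 0 rises. At an unadjusted p under 0.05, 33 were lower and 13 higher, beside 1648 of all 8858 genes in either direction. The median change was -0.07 (-0.42 without Ttf/T43H replicate 2). Smpx, a small muscle protein, had the largest fall of all genes: 2.38, 2.40 and 2.43 in Ttf/T43H against 7.60 and 7.27 in C57BL/10J. The carrier values lay at background, so the change of -5.03 ± 0.35 (limma adjusted p = 0.00051) may understate the difference. The t12/T43 arrays were also at 2.37 to 2.44. Actrt1, an actin-related protein of the sperm head, read 2.36, 3.35 and 3.29 against 7.32 and 5.92. Tex13a, a testis gene, read 5.16, 6.31 and 6.30 against 8.59 and 8.21. The other 4 were H2ap, H2al3, Satl1 and Tmsb15a. Smpx, Actrt1 and H2ap passed the rule on low values through C57BL/10J arrays only, so they had to be lower in Ttf/T43H. Limma called 0 of 19 tested X housekeeping genes, 0 had an unadjusted p under 0.05, and their median change was -0.27 (-0.68 without Ttf/T43H replicate 2). On the Y, 1 of 4 tested genes fell: Uty, a histone demethylase relative, averaged 2.91 over the 3 carrier arrays, the lowest of them at 2.77, against 4.89 and 4.93, and it too passed through C57BL/10J arrays only.

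**Figure D3:**
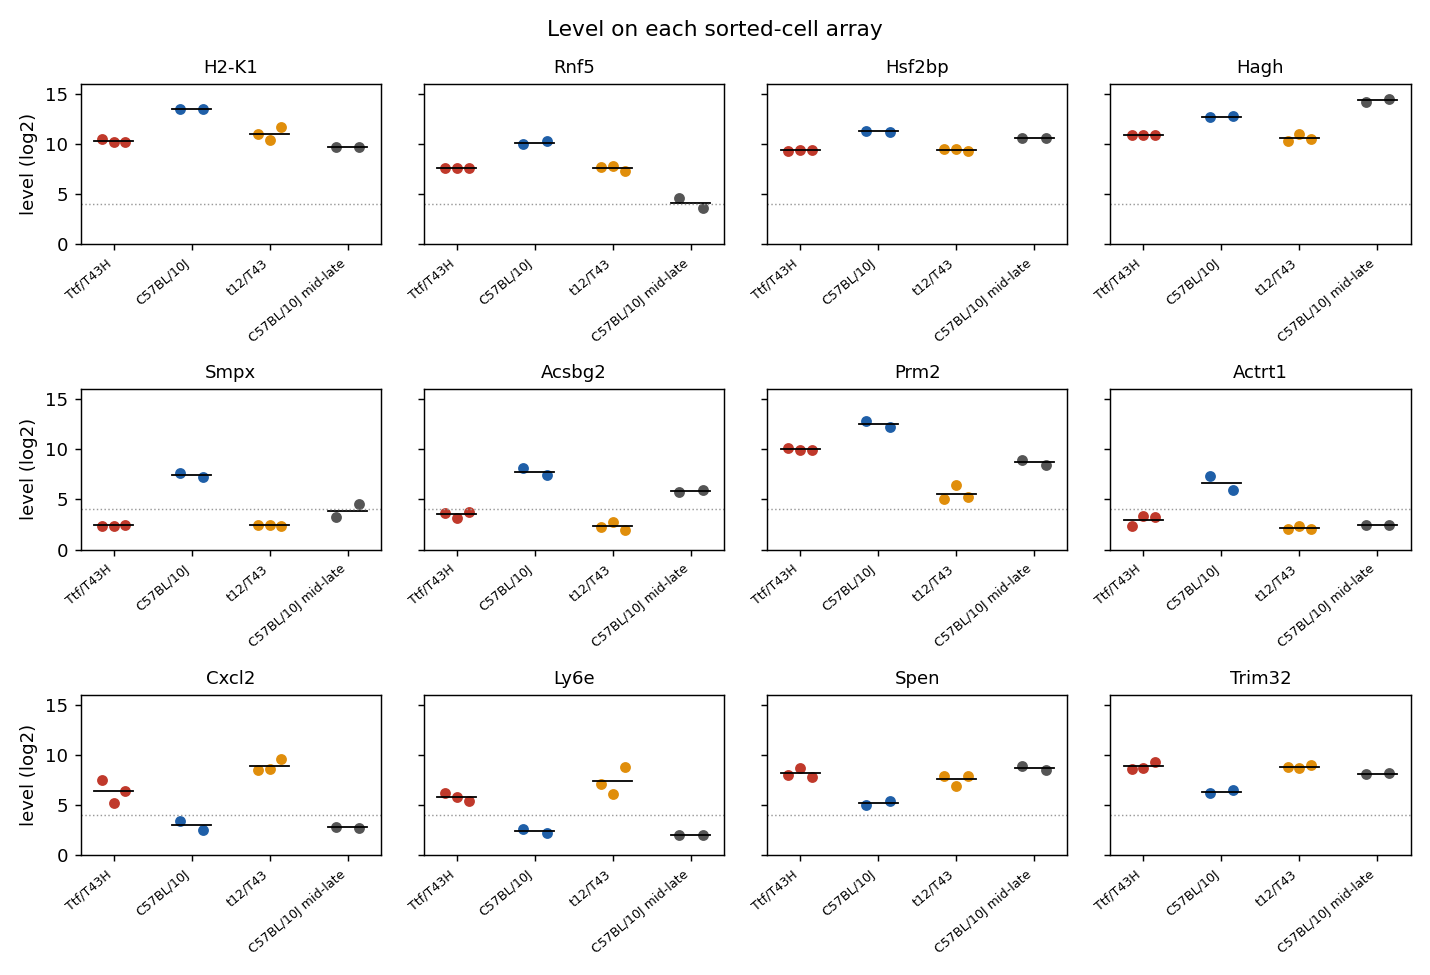
Level (log2) of 12 genes on each sorted-cell array, with group means as black bars and a dotted line at the filter value of 4. Smpx lay at 2.38 to 2.43 in Ttf/T43H and at 7.60 and 7.27 in C57BL/10J, and Trim32 at 8.54 to 9.33 against 6.21 and 6.47.

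The next largest falls with a gene name after Smpx were those of Ubqlnl, Pdzk1 and Acsbg2. Ubqlnl, a ubiquilin relative, read 5.05, 6.34 and 6.43 in Ttf/T43H against 10.87 and 10.20 in C57BL/10J (-4.60 ± 0.68, limma adjusted p = 0.016). Pdzk1, a scaffold protein with PDZ domains, read 6.19, 5.73 and 6.04 against 10.80 and 10.13. In both genes the groups stood about 4 units apart. Acsbg2, an acyl-CoA synthetase of the testis on distal 17, read 3.67, 3.15 and 3.76 against 8.09 and 7.46 (-4.25 ± 0.32, limma adjusted p = 0.00071). Dnajb8, a testis co-chaperone, and Eya4, a transcriptional co-activator, fell by 3.71 and 3.67. Acsbg2 and Eya4 lay below 4 on every Ttf/T43H array, so they had to be lower there.

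In all 5 fits that leave out 1 array, 12 genes kept their call, all of them falls, and they also kept it with the Gapdh covariate and with the replicate block. They include Smpx, Acsbg2, Cct8l1, Mcu, Abo, Tmem159, Tmco5b and Ubl4b. In 11 of the 12, every Ttf/T43H array lay below 4, where values vary little. These 11 passed the rule on low values through C57BL/10J arrays only, so their direction was fixed by it and the count is no support for one. Mcu, the mitochondrial calcium uniporter, read 2.18, 2.28 and 2.28 against 5.31 and 4.89. Cct8l1, a testis chaperonin gene, read 1.93, 1.95 and 1.96 against 5.53 and 5.21. Ubl4b, an autosomal retrocopy of an X gene, read 2.54, 2.58 and 2.94 against 6.30 and 5.26.

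Spermatid genes read lower in Ttf/T43H as a list, with a median of -1.69 against 0.01 for all genes. Of 37 tested, 0 had a change above 0, beside 4517 of all 8858 genes. At an unadjusted p under 0.05, 15 were lower and 0 higher, beside 1648 of all genes in either direction, but limma called only Prm2. Prm2, which packs DNA in sperm, read 10.17, 9.97 and 9.95 against 12.80 and 12.18 (-2.46 ± 0.42, limma adjusted p = 0.025). Its level was 8.93 and 8.48 in C57BL/10J mid-late cells and 5.03, 6.46 and 5.26 in t12/T43. Tssk3 and Fscn3, at changes of -2.74 ± 0.58 and -3.21 ± 0.73, missed the threshold (limma adjusted p = 0.05 and 0.058). Among genes that fell, the median level was 7.83 in C57BL/10J, 5.29 in Ttf/T43H and 6.11 in the C57BL/10J mid-late fraction, which read below 4 for 39 of the 137. How much of the falls goes with the higher spermatid signal of the C57BL/10J sorts was not tested.

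Of 27 tested genes of mid-late pachytene and division, Spink2, an inhibitor of the acrosomal protease, rose (9.80, 10.32 and 10.25 against 8.94 and 8.24), a call lost without any one of the 5 arrays. In the recombination list Hsf2bp was the 1 call among 23, and in the piRNA list Tdrkh, a mitochondrial partner of PIWI proteins, was the 1 among 18 (9.97, 10.14 and 9.88 against 11.31 and 11.69). Limma called 0 of 17 synapsis genes, 0 of 10 leptotene and zygotene genes, 0 of 16 spermatogonial genes, 0 of 20 DNA damage genes and 0 of 14 p53 genes. Beside 2.21% of all genes called in either direction, 0 or 1 call in lists of this size shows nothing about the lists. At an unadjusted p under 0.05 there were 0, 1, 0, 3 and 1 in these lists, all lower. The median of the spermatogonial list was 0.87, and -0.05 without Ttf/T43H replicate 2.

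Among genes that rose, Cxcl2, a chemokine for neutrophils, and Ly6e, an interferon-induced membrane protein, had the largest fitted changes. Cxcl2 read 7.44, 5.23 and 6.36 in Ttf/T43H, beside 3.39 and 2.52 in C57BL/10J, a change of 3.39 ± 0.60 (limma adjusted p = 0.028). Ly6e read 6.17, 5.77 and 5.44 against 2.63 and 2.16 (3.39 ± 0.65, limma adjusted p = 0.038). In both genes every control array lay below 4, so these changes are measured against background, no fold is given, and the rule on low values fixed their direction. Ifi202b, of the interferon-inducible p200 family, read 6.70, 4.86 and 6.89 against 3.10 and 3.16. Its control arrays lay below 4 as well. It also read 5.60 and 5.54 in the C57BL/10J mid-late cells, above the pre-mid cells of the same strain. Apoc2, a cofactor of lipoprotein lipase, read 7.08, 7.99 and 6.28 against 4.34 and 3.89.

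Trim32, Spen and Mta1 rose from control levels well above background. Trim32, a ubiquitin ligase, read 8.54, 8.69 and 9.33 against 6.21 and 6.47 (2.51 ± 0.28, limma adjusted p = 0.0049). Spen, an RNA-binding repressor known from X inactivation, read 7.99, 8.65 and 7.77 against 5.01 and 5.35 (2.96 ± 0.39, limma adjusted p = 0.0099). Mta1, a subunit of the NuRD complex, read 9.27, 9.08 and 9.66 against 7.28 and 6.28. All 3 were also above the C57BL/10J pre-mid arrays in the mid-late fraction, where Trim32 read 8.08 and 8.17, Spen 8.89 and 8.46 and Mta1 8.43 and 8.46.

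The immediate early list had 1 call among 19, Klf4, which read 9.05, 9.58 and 8.21 against 6.49 and 6.72. All 19 changes were above 0 (median 1.33), beside 4517 of all 8858 genes. At an unadjusted p under 0.05, 11 of the 19 were higher and 0 lower, beside 1648 of all genes in either direction. Fosb had a change of 3.29 ± 0.71 that missed the threshold (limma adjusted p = 0.051). The chemokine list had 1 call among 7 (median 1.27) and the interferon list 2 among 8 (median 0.95), beside 0.666% of all genes called higher. These calls, Cxcl2, Ly6e and Ifi202b, passed the rule on low values through Ttf/T43H arrays only. It fixed their direction, so the counts are no support for one. Of 25 interferon genes on the array, only 8 were tested. Without Ttf/T43H replicate 2 the chemokine and interferon medians were 2.11 and 0.50. Beside these, 12 of 13 Sertoli genes had a change above 0 with a median of 1.12, and 6 of 7 Leydig genes with a median of 1.43 (1.19 and 1.98 without Ttf/T43H replicate 2). Limma called 0 of either list, and 6 Sertoli and 3 Leydig genes had an unadjusted p under 0.05. The Leydig list averaged 8.43, 7.14 and 7.34 in Ttf/T43H against 6.29 and 5.05. Cyp11a1, the first enzyme of steroid synthesis, read 8.70, 6.44 and 6.84 against 4.31 and 1.99. The macrophage list had 1 tested gene, Mrc1, which read 8.33, 6.93 and 7.88 in Ttf/T43H against 7.12 and 7.03. Lyz2, not tested, read 5.04, 3.04 and 3.31 against 3.32 and 2.70. Cd68, Csf1r and Ptprc were near background on all 5 arrays. In 15-day Ttf/T43H and C57BL/6J testes Csf1r averaged 7.01 and 7.30. Cd68 averaged only 3.93 and 4.14 there and Ptprc 2.66 and 2.57, so low values of these genes say little. The part of somatic RNA in the rises was not tested.

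**Figure D4:**
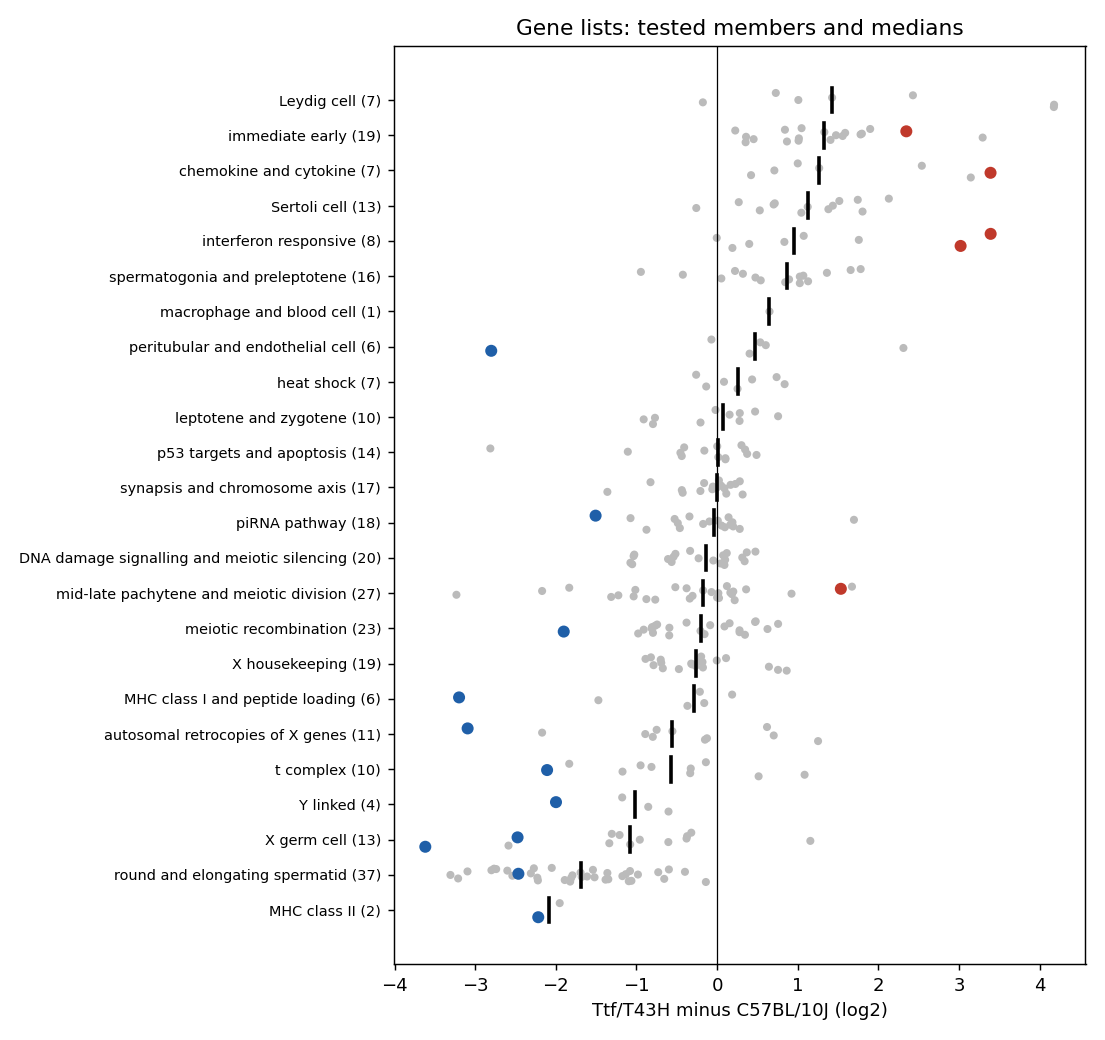
Change (log2, Ttf/T43H minus C57BL/10J) of the tested members of 24 gene lists, with medians as black bars, called rises in red, called falls in blue and the number tested in parentheses. The spermatid list has a median of -1.69 with 1 call among 37, and the immediate early list 1.33 with 1 call among 19.

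The 15-day testes of Ttf/T43H males share no array with the sorted comparison, but their controls were C57BL/6J. Limma called 793 of 9093 genes there (8.72%), 357 higher and 436 lower. Of the 196 genes called in sorted cells, 115 were tested in testes, and 27 were called in the same direction, which is 13.8% of the 196, 3.40% of the 793 and 23.5% of the 115. The other 81 were 79 falls and 2 rises that did not pass the filter there. Falls of proximal 17 were called lower in 9 of 15 tested, falls elsewhere in 8 of 43, and rises were called higher in 10 of 57. In the testes themselves, 78 of 269 genes of proximal 17 were lower and 5 higher, with a median of -0.21.

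H2-K1 read 10.37, 10.12 and 10.40 in Ttf/T43H testes and 10.97 and 10.79 in C57BL/6J, a fall of 0.58 there beside 3.20 in sorted cells, a difference that was not tested. Rsph1 read 11.60, 11.47 and 11.37 against 13.26 and 13.12 (-1.71 ± 0.09, limma adjusted p = 7.7e-05). Smpx read 2.46, 2.39 and 2.40 against 12.73 and 12.67, so it lay at background in carriers of both ages and tissues. Apoc2 and Ifi202b were higher in testes too, by 2.51 ± 0.20 and 2.12 ± 0.16. Ly6e had a testis change of -0.07 ± 0.17, at 10.19 to 10.63 in carriers and 10.28 and 10.66 in controls. Efhd2, a calcium-binding protein named here because it was the 1 gene called in opposite directions, rose by 1.54 ± 0.31 in sorted cells and fell by 1.06 in testes.

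**Figure D5:**
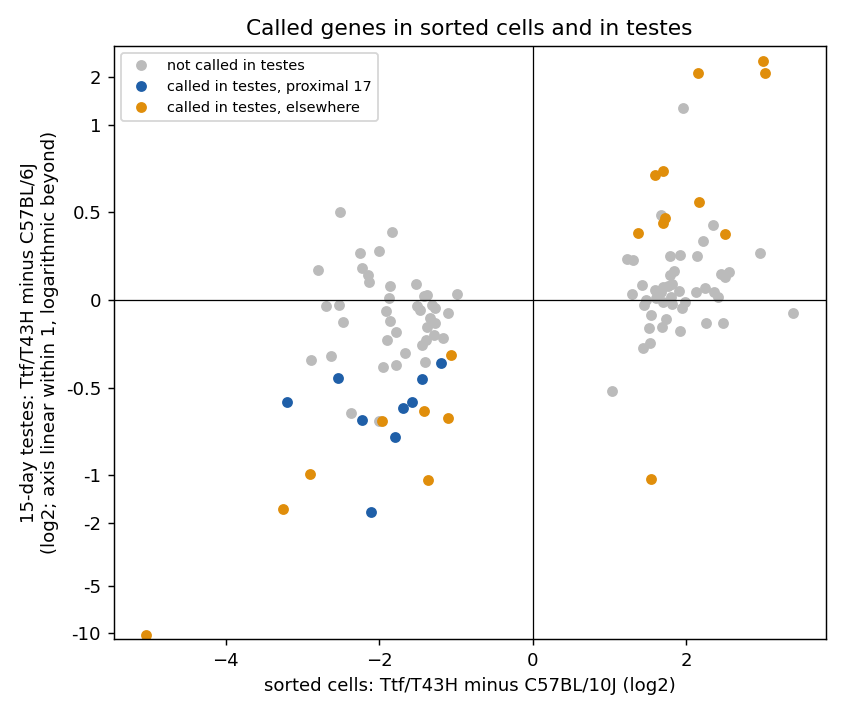
Change in 15-day testes against change in sorted cells (both log2, the testis axis logarithmic beyond 1) for the 115 genes called in sorted cells and tested in testes. Blue points are the 9 falls of proximal 17 called in testes, and Smpx lies at -10.29 on the testis axis.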

How the data were processed

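The submitters' processing notes name GCRMA, a method for background correction, normalization and probe summary, for the log2 expression values that the authors deposited. Its version and the set of arrays normalized together are not stated in the labels. No further normalization was applied. Of 16539 probe sets, 15780 carry 1 gene symbol, 0 several and 759 none. The names come from GEO's platform annotation, and GRCm38.p6 gave only gene order and promoter windows. Genes were fitted with limma 3.58.1 in R 4.3.3 (lmFit, eBayes) on the 10 sorted arrays, with 1 mean per group. Tests were two-sided with Benjamini-Hochberg adjustment over all genes tested, and errors are moderated standard errors. The 8 testis arrays, those of t12+/+T43 included, were fitted separately. The fit was tested on simulated data. Arrays give no read depth, and their number limits the precision.

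The members, gene lists and alternatives were chosen with earlier results of these data known, so lists are described by counts and medians with no set test. The 16 promoter motifs were looked at with the calls in view. Named genes were the 15 largest rises and falls without clone names, called members and the 3 smallest p-values of each list, 6 called genes of each region, Zfy1 and Zfy2, and 10 genes called in both comparisons, and the text names fewer. Sycp3, Amh, Fshr, Gata4, Dhh, Cd68, Csf1r, Ptprc, Lyz2, Efhd2, Mcu, Abo, Tmco5b, Tmsb15a and Kctd5 were named after their values were seen. Replicate numbers were not used to pair the sorted samples in the main fit: deviations of same-numbered arrays correlated at 0.002 and 0.042. The 2 arrays of C57BL/10J deviate as mirror images, so this check cannot exclude a pairing.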

Additional observations from a re-analysis of the deposited data

Results flagged for a closer look

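Among the 108 genes followed across settings, 13 had carrier and control ranges that did not overlap in sorted cells nor in testes, with changes of opposite sign. Ranges did not overlap in sorted cells for 42.4% of all tested genes. The share of all genes that meet every one of these conditions was not computed, so the 13 cannot be judged against it. The difference between the tissues was not tested, and control strains differ. Efhd2 changed by 1.54 in sorted cells and by -1.06 in testes. Actg2 changed by -2.80 and 0.17, S100a10 by 2.48 and -0.13, Brca1 by -1.08 and 0.083, and H2-D1 by -1.47 and 0.51. Dmc1 changed by -0.80 and 0.54, Msh5 by -0.81 and 0.37, Ifi35 by 0.83 and -0.10, and Zfy2 by -1.18 and 1.15. Usp9y changed by -0.85 and 0.59, Casp9 by -0.44 and 0.35, Sohlh2 by -0.95 and 0.34, and Ube2a by -0.89 and 0.20. Of these, limma called Actg2, S100a10 and Efhd2 in sorted cells.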

How the results depend on the processing

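The count of 196 genes called in sorted cells was 113 with the 8 pre-mid-pachytene arrays alone, 21 with the Gapdh 3-prime signal as a covariate and 19 with the replicate number as a block. It ranged from 13 to 386 when 1 array was left out, and was 578 without both arrays that stood apart in earlier results. With no filter, a filter at log2 6, a filter over all 10 sorted arrays, quantile normalization, median centring, the 5 arrays alone, or a trended and robust variance, it stayed within 1.5 times of 196. The genes called were less stable than the count. Of the 196, these fits shared 132, 132, 188, 182, 172, 83 and 164, in that order. Array weights were planned, but their estimate stopped with a convergence warning (5013 calls), and that fit was left out of every other count. In testes the count of 793 was 490 with the 5 arrays alone, 2145 with the replicate block, and 233 to 832 when 1 array was left out. The titles give same-numbered arrays only a shared number. In testes, deviations of same-numbered Ttf/T43H arrays correlated at 0.39 and 0.17 with C57BL/6J and at 0.49, 0.038 and 0.67 with t12/T43. The 2 C57BL/6J arrays deviate as mirror images, and whether same-numbered arrays are paired cannot be settled by these values. None of the 58 called genes among the 108 followed across settings changed direction in any of them. All 196 called genes had group ranges that did not overlap, so leaving out an array could not reverse them. A changed filter or variance leaves the difference of means as it is, so this count is no support for a direction. The counts per list and per part of chromosome 17 under each setting were added after seeing the data. With 3 and 2 arrays, only large changes could be called.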
